A study of Mus musculus with 15 samples.

Results

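The genes described here are the 7 Cyp2a and Cyp2b cytochrome P450 genes *Cyp2a4*, *Cyp2a5*, *Cyp2a12*, *Cyp2a22*, *Cyp2b9*, *Cyp2b10* and *Cyp2b13*. They were taken by their symbols from a table of 55573 mouse genes, and all 7 were among the 17655 genes with enough reads to be tested. RNA of whole liver was sequenced from 15 mice aged 8 weeks, namely 3 WT females (FWT), 3 WT males (MWT), 5 ESR1KO females (FKO) and 4 ESR1KO males (MKO), and 1 library was made from each mouse. All mice carry the strain label B6N(Cg)-Esr1tm4.2Ksk/J, and the WT mice are described as littermates. The ESR1KO mice came from matings of heterozygotes and were homozygous for a deletion of exon 3 of *Esr1*, the gene for estrogen receptor alpha. The deletion is present in the whole body, and the study describes these mice as infertile with raised testosterone in both sexes, so that loss of the receptor from the liver and a change in circulating hormones cannot be told apart. The comparisons asked whether the sex bias of these genes in WT livers was lost, kept or reduced without the receptor.

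Cytochrome P450 enzymes of the Cyp2a and Cyp2b subfamilies are heme proteins of the endoplasmic reticulum of hepatocytes, where they oxidize steroids, drugs and other foreign compounds with electrons supplied by the reductase POR. *Cyp2a5* encodes the main coumarin hydroxylase of mouse liver, and *Cyp2a4* encodes a closely related hydroxylase of steroids. *Cyp2b10* is the classic target of the nuclear receptor CAR (*Nr1i3*) and is induced by phenobarbital, whereas *Cyp2b9* and *Cyp2b13* are best known for RNA levels that are higher in the livers of adult females.

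The 7 genes lie in 1 cluster of Cyp2 genes on chromosome 7 of GRCm38, and the coding transcript of each has 9 exons in GENCODE M21. In chromosomal order the cluster holds *Cyp2b10* (chr7:25897620-25926624), *Cyp2b13* (chr7:26061497-26096197), *Cyp2b9* (chr7:26173411-26210661), *Cyp2a4* (chr7:26307169-26315088), *Cyp2a5* (chr7:26835305-26843548), *Cyp2a22* (chr7:26931631-26939384) and *Cyp2a12* (chr7:27029081-27037375). *Cyp2a22* is on the minus strand and the other 6 genes are on the plus strand. Several members are close copies of each other, to different degrees, which bears on how reads were assigned. The coding transcripts of *Cyp2a4* and *Cyp2a5* were identical at 98.2% of aligned bases, and 36.1% of all 50-base windows of *Cyp2a4* occurred unchanged in *Cyp2a5*. The identity was 96.1% between *Cyp2a12* and *Cyp2a22*, 89.2% between *Cyp2b9* and *Cyp2b13*, 86.1% between *Cyp2b9* and *Cyp2b10*, and 85.4% between *Cyp2b10* and *Cyp2b13*. *Cyp2a12* shared 27.5% of its 50-base windows with *Cyp2a22*. *Cyp2b9* shared 10.8% with *Cyp2b13* and 0.547% with *Cyp2b10*, and *Cyp2b10* shared 7.82% with *Cyp2b13*. With windows of 100 bases, *Cyp2a4* shared 11.2% with *Cyp2a5*, and *Cyp2b9* shared 1.18% with *Cyp2b13*. How reads that match more than 1 copy were counted is not given in the sources used here, so values of the copies carry that uncertainty.

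The promoters of the 2 closest pairs are shown because, in some groups, the members of each pair differed in RNA level by far more than in sequence. In WT females the levels of *Cyp2a4* and *Cyp2a5* overlapped. RefSeq windows of 300 bases on GRCm38.p6, from 250 bases before to 50 bases after the transcription start, were matched for all 7 genes. The windows are chr7:26306942-26307241 for *Cyp2a4*, chr7:26835089-26835388 for *Cyp2a5*, chr7:26173159-26173458 for *Cyp2b9* and chr7:26061245-26061544 for *Cyp2b13*, all on the plus strand. Each is written 5′ to 3′ on a line of its own, and capitals mark the bases that differ from the other copy of the pair.
Cyp2a4: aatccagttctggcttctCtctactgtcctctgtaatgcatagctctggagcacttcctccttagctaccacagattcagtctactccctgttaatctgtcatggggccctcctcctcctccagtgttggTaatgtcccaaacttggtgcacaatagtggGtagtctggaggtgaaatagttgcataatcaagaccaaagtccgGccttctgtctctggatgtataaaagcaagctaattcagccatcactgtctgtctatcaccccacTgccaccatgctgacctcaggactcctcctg
Cyp2a5: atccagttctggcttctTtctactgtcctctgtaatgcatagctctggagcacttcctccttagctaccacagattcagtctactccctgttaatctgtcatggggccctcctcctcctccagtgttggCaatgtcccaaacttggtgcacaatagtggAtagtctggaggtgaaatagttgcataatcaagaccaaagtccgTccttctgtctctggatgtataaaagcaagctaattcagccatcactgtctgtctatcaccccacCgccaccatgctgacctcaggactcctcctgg
Cyp2b9: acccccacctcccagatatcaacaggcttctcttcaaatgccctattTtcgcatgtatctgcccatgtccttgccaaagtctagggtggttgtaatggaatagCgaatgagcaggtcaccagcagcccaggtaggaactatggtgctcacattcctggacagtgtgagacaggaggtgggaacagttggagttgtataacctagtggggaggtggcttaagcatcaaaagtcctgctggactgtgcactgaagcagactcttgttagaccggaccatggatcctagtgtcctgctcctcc
Cyp2b13: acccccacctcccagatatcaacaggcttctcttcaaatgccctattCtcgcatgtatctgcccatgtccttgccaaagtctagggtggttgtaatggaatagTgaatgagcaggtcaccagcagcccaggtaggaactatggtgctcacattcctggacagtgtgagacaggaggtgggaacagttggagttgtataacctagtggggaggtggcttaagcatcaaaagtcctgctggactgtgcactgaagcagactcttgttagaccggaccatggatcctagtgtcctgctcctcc
The *Cyp2b9* and *Cyp2b13* windows were identical at 298 of 300 bases, with the substitutions T48C and C104T from *Cyp2b9* to *Cyp2b13*, counted from 1 at the 5′ end of the *Cyp2b9* window. The *Cyp2a4* and *Cyp2a5* windows, which are offset by 1 base, were identical at 294 of 299 aligned bases, with C19T, T131C, G161A, G205T and T270C from *Cyp2a4* to *Cyp2a5*, counted in the *Cyp2a4* window. By contrast, the *Cyp2b10* window was identical to that of *Cyp2b9* at 73.4% of aligned bases, and the *Cyp2a12* window to that of *Cyp2a22* at 89.4%.

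Short motifs were searched on both strands of the 7 windows and of all 32851 promoters of the same length. The nuclear receptor element AGGTCA was found in 4 of the 7 windows and in 16.3% of all promoters, and the shorter GGTCA, which every AGGTCA contains, in 5 of the 7 and in 40.5% of all promoters. AGGTCA began 138 bases before the start in both *Cyp2b9* and *Cyp2b13*, on the strand of the gene. It lay on the opposite strand 31 bases after the start in *Cyp2a4* and 30 bases after it in *Cyp2a5*, and neither pair differed within the match. Matches within a pair of near-identical windows are not independent, so these counts of windows cannot be set against the shares of all promoters. None of the 7 windows held the letters of STAT5 (TTCNNNGAA, in 8.3% of all promoters), the BCL6 core (TTCCNNGAA, 4.81%), a forkhead site (TGTTTAC, 3.65%), HNF6 and CUX2 (ATTGAT, 7.54%), NRF2 (TGACNNNGC, 12.4%), or the DR1 (0.0396%), DR4 (0.0152%) and palindromic estrogen response elements (0.0213%). A match is only a description of these letters and is not a measured binding site.

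Levels are given as CPM, the read count of a gene relative to the size of its library, scaled by TMM, and levels of different genes are set side by side only as CPM per kilobase of exon. The libraries held between 27799061 and 78624766 counted reads, and the 10 most abundant genes took 15.97% to 24.67% of them. WT females had 81.9 ± 6.79 CPM of *Esr1* itself (SD, n = 3) and WT males 36.1 ± 14.1 (n = 3), against 13.1 ± 4.01 (n = 5) and 11.8 ± 3.35 (n = 4) in the ESR1KO mice of each sex, which follows the genotype labels. Defining hepatocyte markers were abundant in every mouse, and summed over 6 genes they stood at 107122 to 113969 CPM in WT females, 79269 to 81462 in WT males, 86080 to 109022 in ESR1KO females and 90588 to 100784 in ESR1KO males. WT females thus did not overlap WT males in this sum. Most of it was *Alb*, for albumin, with means of 86414 CPM in WT females and 54550 in WT males. *Alb* was higher in WT females (log2 0.66, adjusted p = 0.0382), and no other marker of the list passed. Of these, *Tat* (0.35) and *Cyp2e1* (0.25) were higher on the log2 scale, and *Apoa1* (-0.64), *Ttr* (-0.35) and *Cps1* (-0.08) lower. The part of these markers in the differences of the 7 genes was not tested. The 3 markers of exocrine pancreas had at most 0.0723 CPM in any mouse. In whole liver, fewer cells of a type and less RNA per cell cannot be told apart.

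In WT livers, 5 of the 7 genes were higher in females than in males, and none was lower (edgeR's quasi-likelihood test, adjusted p under 0.05). Over all 17655 genes tested, 2.67% were higher and 2.2% lower in that comparison. *Cyp2a4*, *Cyp2a22*, *Cyp2b9*, *Cyp2b10* and *Cyp2b13* were the genes that passed, and *Cyp2a5* and *Cyp2a12* did not. The same 5 genes fell in ESR1KO females against WT females, where 2.57% of all genes were lower and 3.14% higher, and none of the 7 rose. *Cyp2b13* had at most 0.165 CPM in any mouse outside WT females and was tested only because of its reads there. In both comparisons it could thus only come out higher in WT females. In ESR1KO males, *Cyp2a4*, *Cyp2b9* and *Cyp2b10* rose above WT males, and none fell, beside 0.833% of all genes higher and 0.583% lower. The median log2 difference over the 7 genes was 7.69 between WT females and WT males, also when genes absent from WT males are set at their lower bound, and -2.36 between ESR1KO and WT females, against 0.01 and 0.00 over all genes. The sex comparison in WT shares its females with the genotype comparison in females and its males with that in males, while the 2 genotype comparisons have no mouse in common.

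**Figure D1:**
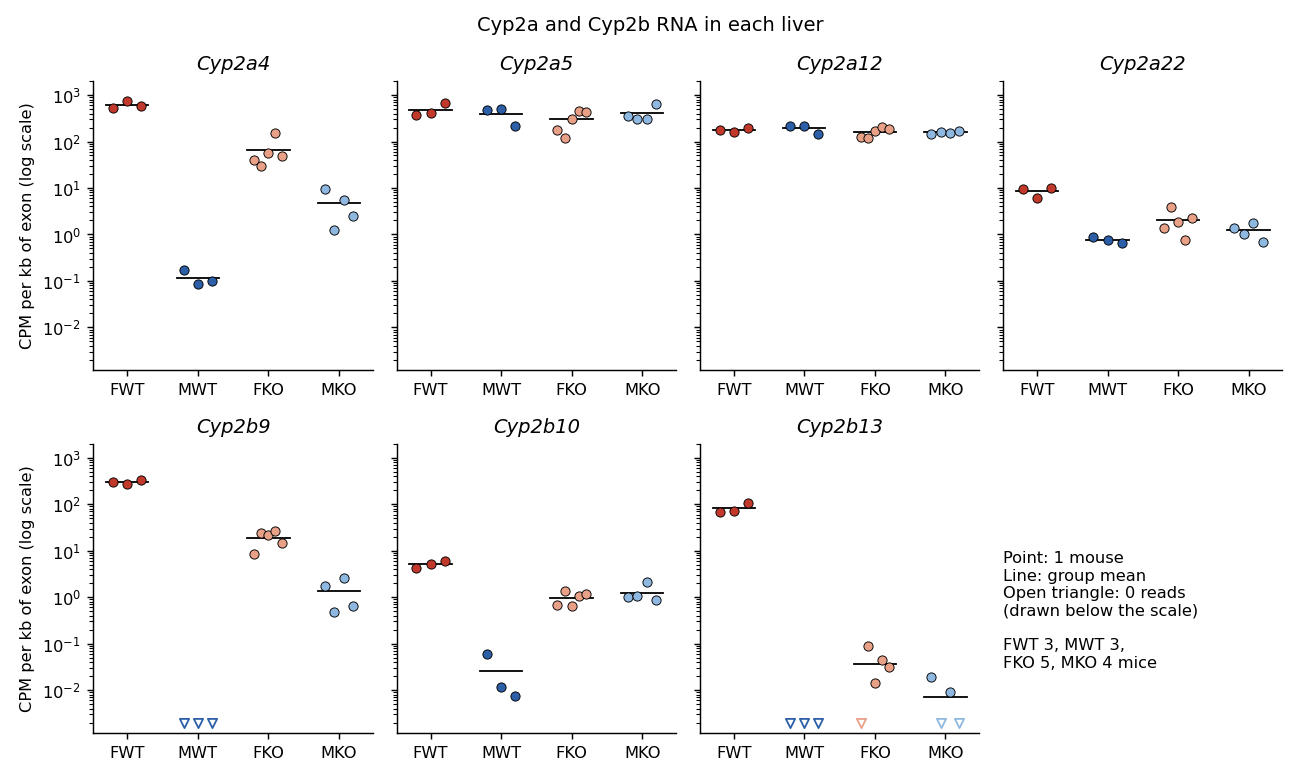
RNA level of each gene in each liver, as CPM per kilobase of exon on a log scale, with 1 point per mouse (FWT 3, MWT 3, FKO 5, MKO 4), a line at the group mean and open triangles for livers with 0 reads. *Cyp2a5* and *Cyp2a12* overlapped between all groups, whereas *Cyp2a4* and *Cyp2b9* stood in 4 separate bands in the order FWT, FKO, MKO, MWT.

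*Cyp2a4*, the steroid hydroxylase gene, had a level in each of the 4 groups that did not overlap with that of any other. In WT females it stood at 899.7, 1270.5 and 986 CPM, and in WT males at 0.296, 0.147 and 0.174 CPM. The 5 ESR1KO females had 70.7, 51.6, 98.6, 259 and 84.6 CPM, and the 4 ESR1KO males 16.1, 2.22, 9.60 and 4.35 CPM. The lowest ESR1KO female was thus above the highest ESR1KO male, and the lowest ESR1KO male above the highest WT male. Group means were 1052 ± 194 in WT females, 113 ± 83.7 in ESR1KO females, 8.07 ± 6.20 in ESR1KO males and 0.206 ± 0.0796 in WT males. WT females exceeded WT males 5112-fold (log2 12.33, SE 0.967, adjusted p = 2.62e-07). ESR1KO females kept 10.7% of the level of WT females (log2 -3.22, SE 0.504, adjusted p = 0.00103), and ESR1KO males rose 39.2-fold over WT males (log2 5.28, SE 0.837, adjusted p = 0.00384).

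Replicate 4 of the ESR1KO females, at 259 CPM, was the highest of its group by a wide gap, and without it the fall was larger (log2 -3.78, adjusted p = 9.5e-05). The WT male value rests on 29 reads over 3 livers. In the same livers the near-identical *Cyp2a5* had 109194 reads, so that *Cyp2a4* was counted at 0.0266% of *Cyp2a5*, which bounds how many *Cyp2a5* reads can have been counted as *Cyp2a4* there. In ESR1KO males that percentage was 0.765%, and in ESR1KO females 17.3%. When the reads of both copies were summed before the fit, the sex difference in WT was 1.33 on the log2 scale (adjusted p = 0.11), the difference in males was 0.06 (adjusted p = 0.98), and that in females was -1.48 (adjusted p = 0.0335). The annotated antisense gene *Gm42375* overlaps the first exon region of *Cyp2a4* by 61 exonic bases, and the strand setting of the counting is not given in the sources used here. *Gm42375* had 3.56 CPM in WT females and 0.0326 in WT males, so its reads and those of *Cyp2a4* cannot be told apart in that stretch.

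*Cyp2a5*, the coumarin hydroxylase gene and the nearest copy of *Cyp2a4*, showed no sex or genotype difference that passed the test. WT females had 772.5, 841 and 1370.2 CPM, and WT males 987, 1013 and 441 CPM. ESR1KO females had 366, 245, 645, 958 and 901 CPM, and ESR1KO males 746, 645, 628 and 1346 CPM. The groups overlapped throughout, and the spread within groups was large, with a 3.91-fold range among the ESR1KO females. WT females and WT males differed by 0.29 on the log2 scale (SE 0.451, adjusted p = 0.801), and ESR1KO males and WT males by 0.05 (SE 0.422, adjusted p = 0.986). In females the ESR1KO mean of 623 ± 316 CPM was 62.6% of the WT mean of 995 ± 327 CPM (log2 -0.68, SE 0.397, adjusted p = 0.329). On the same scale ESR1KO females gave -0.43 against ESR1KO males (adjusted p = 0.544) and -0.39 against WT males (adjusted p = 0.644). A fit with the replicate number as a block moved the difference between ESR1KO and WT females past the threshold (log2 -1.24, adjusted p = 0.0485), although the numbers did not pair the mice.

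*Cyp2a12*, which encodes another steroid hydroxylase, varied least of the 7 genes over the 15 mice, with a root mean square of 0.265 on centred log2 CPM. Its means were 619 ± 59.1 CPM in WT and 556 ± 137 in ESR1KO females, and 667 ± 149 in WT and 544 ± 43.2 in ESR1KO males. Single livers lay between 412 CPM in an ESR1KO female and 757 CPM in a WT male. No comparison of 2 groups passed the test, and the log2 differences lay between -0.29 for ESR1KO against WT males (SE 0.193, adjusted p = 0.615) and 0.03 for ESR1KO females against ESR1KO males (SE 0.170, adjusted p = 0.939).

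*Cyp2a22*, the close copy of *Cyp2a12*, was weakly expressed and biased towards females. It had 32.1, 21.3 and 33.7 CPM in WT females and 3.06, 2.59 and 2.27 CPM in WT males, an 11.0-fold difference between the means (log2 3.46, SE 0.461, adjusted p = 0.00012). ESR1KO females had 4.73, 13.7, 6.52, 2.65 and 7.89 CPM, all below the WT females, and the lowest of them lay within the range of WT males. Their mean of 7.10 ± 4.18 CPM was 24.5% of that of WT females (log2 -2.04, SE 0.361, adjusted p = 0.003). ESR1KO males, at 4.73, 3.59, 6.11 and 2.37 CPM, overlapped WT males (log2 0.67, SE 0.427, adjusted p = 0.604). *Cyp2a22* reads were 0.403% of *Cyp2a12* reads in WT males and 4.74% in WT females, and the part of *Cyp2a12* reads in the low values was not tested. The pseudogene *Cyp2a21-ps* spans *Cyp2a22* on the opposite strand without sharing an exonic base.

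*Cyp2b9* was the most abundant Cyp2b gene of WT females and had no read in WT males. It stood at 561, 523 and 611 CPM in WT females, a spread of 7.80% of the mean, and at 0 reads in all 3 WT males. A count of 0 over that group allows up to 3 reads, or 0.0208 CPM, so that WT females were at least 27199.7-fold higher (adjusted p = 7.73e-08). ESR1KO females had 15.8, 44.1, 40.3, 49.0 and 27.6 CPM, far below every WT female and far above every male. Their mean of 35.4 ± 13.5 CPM was 6.26% of that of WT females (565 ± 44.1 CPM, log2 -4.00, SE 0.414, adjusted p = 3.2e-05). ESR1KO males had 3.22, 0.910, 4.77 and 1.22 CPM, from 494 reads in all, and were at least 122-fold above WT males (adjusted p = 0.00348, and 0.00523 without replicate 3 of the ESR1KO males). As for *Cyp2a4*, the 4 groups of *Cyp2b9* did not overlap, in the same order.

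*Cyp2b13*, whose promoter window differs from that of *Cyp2b9* at 2 bases, had the largest fall of the 7 genes in ESR1KO females. It was tested only because of its reads in WT females, so only a fall could be seen in that comparison. WT females had 124, 131 and 201 CPM, and WT males had 0 reads, so that WT females were at least 7326-fold higher (adjusted p = 1.42e-10). In ESR1KO females the level was 0 CPM in replicate 1 and 0.165, 0.0261, 0.0827 and 0.0604 CPM in the others, from 15 reads in all. This was 0.0440% of the WT female mean of 152 ± 42.7 CPM, a 2274-fold fall (log2 -11.15, SE 0.324, adjusted p = 1.59e-11). In ESR1KO males 2 reads were counted over 4 livers, which is under the limit of 3 reads that applies to WT males, so no fold change is given and no difference was detectable at this depth. The means were 0.0134 CPM in ESR1KO males and 0.0669 CPM in ESR1KO females. A separate ratio, of the reads summed over each group and scaled by library size, was 6.53 for females over males. Its exact 95% counting interval ran from 1.52 to 58.9, and the difference did not pass the test across mice (adjusted p = 0.254). *Cyp2b13* reads in ESR1KO females were 0.187% of *Cyp2b9* reads, against 26.5% in WT females. The pseudogene *Rnf170-ps* lies in an intron of *Cyp2b13* on the same strand and went from 5.15 CPM in WT females to 0.0680 CPM in ESR1KO females, and its reads and unspliced *Cyp2b13* RNA cannot be told apart.

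*Cyp2b10*, the CAR target, was the least abundant Cyp2b gene of WT females and its levels overlapped between ESR1KO females and ESR1KO males after a change from WT in both sexes. WT females had 8.75, 10.9 and 12.4 CPM, and WT males 0.123, 0.0244 and 0.0159 CPM, from 7 reads in all. The means differed 196-fold (log2 7.69, SE 0.536, adjusted p = 4.95e-08). ESR1KO females had 1.43, 2.84, 1.36, 2.23 and 2.46 CPM, and ESR1KO males 2.17, 2.24, 4.37 and 1.82 CPM. Both ESR1KO groups lay between the WT groups without touching either of them, and they overlapped each other. ESR1KO females kept 19.3% of the WT female level (log2 -2.36, SE 0.285, adjusted p = 7.1e-05), and ESR1KO males were 48.5-fold above WT males (log2 5.69, SE 0.550, adjusted p = 4.99e-05). Replicate 1 of the WT males held the highest of their 3 values, and without it the difference was 8.93 on the log2 scale between the WT sexes and 6.93 between ESR1KO and WT males (adjusted p = 0.000301).

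**Figure D2:**
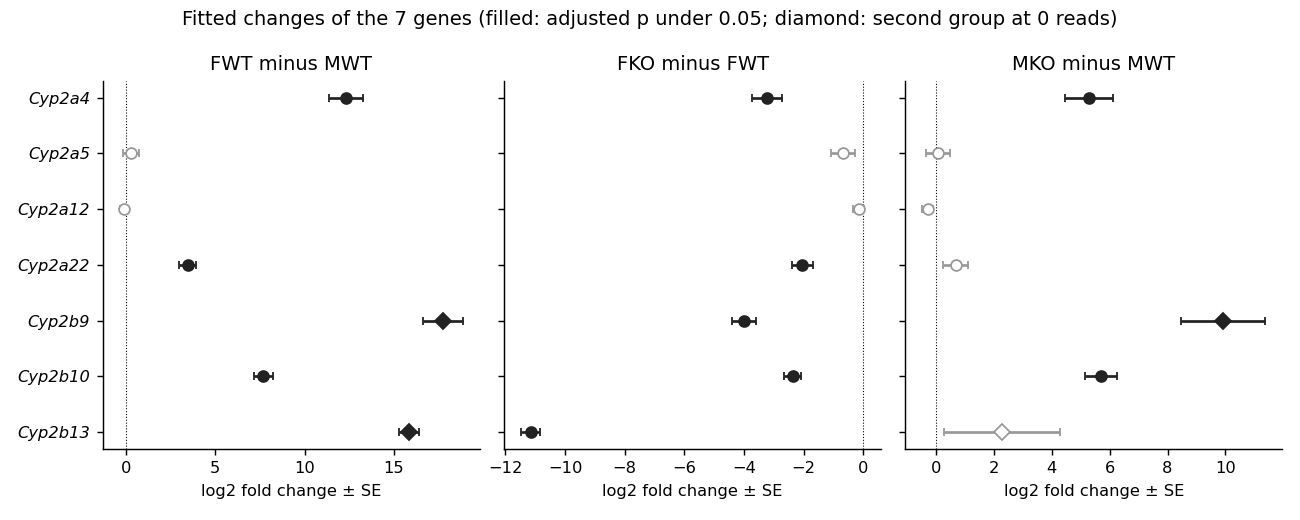
Fitted log2 fold changes with standard errors of the 7 genes in WT females against WT males, ESR1KO against WT females and ESR1KO against WT males, where filled symbols passed an adjusted p of 0.05 and diamonds mark a second group with 0 reads, whose fitted size depends on the prior count. The 5 genes that passed in the first panel, all to the right of 0, also passed in the second, all to the left of 0, and *Cyp2a4*, *Cyp2b9* and *Cyp2b10* passed to the right of 0 in the third. *Cyp2b13* was tested only because of its reads in WT females, which set its direction in the first and second panels.

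The interaction of sex and genotype passed for the 5 sex-biased genes, and each was negative, meaning that the log2 change in females was below that in males. The test uses the same WT mice as the sex comparison in which these genes passed. WT males had 0 reads of *Cyp2b9* and *Cyp2b13*, 7 of *Cyp2b10* and 29 of *Cyp2a4*. A fall in males could thus hardly be seen for these genes, and the sign of their interaction was largely set by that. In this test 0.923% of all genes were lower and 1.02% higher. The interaction was -8.50 on the log2 scale for *Cyp2a4* (SE 0.978, adjusted p = 6.61e-05), -8.06 for *Cyp2b10* (SE 0.613, adjusted p = 7.55e-07) and -2.71 for *Cyp2a22* (SE 0.565, adjusted p = 0.0165). *Cyp2b9* passed as well (adjusted p = 2.01e-05), and *Cyp2b13* passed narrowly (adjusted p = 0.048), but both have 0 reads in WT males, so their fitted sizes depend on the prior count. *Cyp2b13* no longer passed in 11 of the 15 fits that each left out 1 mouse, with an adjusted p of up to 0.237 without replicate 1 of the ESR1KO males, and passed only without replicate 3 of the WT females, replicate 1 or 2 of the ESR1KO females, or replicate 4 of the ESR1KO males. *Cyp2a5* (-0.72, adjusted p = 0.59) and *Cyp2a12* (0.14, adjusted p = 0.841) did not pass. Without replicate 1 of the WT males the interaction of *Cyp2b10* was -9.30. *Cyp2a22* no longer passed in 2 of the 15 fits, without replicate 2 of the WT males (adjusted p = 0.0507) or without replicate 3 (0.0577).

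A sex bias remained in ESR1KO livers for *Cyp2a4* and *Cyp2b9*, in the direction seen in WT. ESR1KO females exceeded ESR1KO males by 3.83 on the log2 scale for *Cyp2a4* (SE 0.543, adjusted p = 0.00241) and by nearly the same 3.82 for *Cyp2b9* (SE 0.448, adjusted p = 0.00071). These were 2 of the 7 genes, and none was lower, beside 0.159% of all genes higher and 0.113% lower. *Cyp2a5* and *Cyp2a12* did not pass. *Cyp2b10* gave -0.37 (SE 0.279, adjusted p = 0.498) and *Cyp2a22* 0.76 (adjusted p = 0.287), and the groups overlapped for both. Without replicate 3 of the ESR1KO males, whose 4.37 CPM was the highest *Cyp2b10* value of that group, the *Cyp2b10* difference was 0.00.

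ESR1KO females did not reach the level of WT males for *Cyp2a4*, *Cyp2b9* and *Cyp2b10*. *Cyp2a4* was 549-fold (log2 9.11, adjusted p = 1.02e-05), *Cyp2b9* at least 1703-fold (adjusted p = 6.09e-06) and *Cyp2b10* 37.8-fold higher (log2 5.33, adjusted p = 2.2e-05, and log2 6.57 without replicate 1 of the WT males) than in WT males. These 3 of 7 compare with 1.38% of all genes higher and 1.23% lower, and none of the 7 was lower. *Cyp2a22* was 2.69-fold higher without passing (log2 1.43, SE 0.414, adjusted p = 0.0847), and passed with DESeq2 (adjusted p = 0.0375) and without replicate 4 of the ESR1KO females (adjusted p = 0.0228). *Cyp2a5* (-0.39) and *Cyp2a12* (-0.26, adjusted p = 0.477) did not pass. *Cyp2b13* was at least 3.22-fold higher (adjusted p = 0.152, and 0.0405 with DESeq2). That bound sets the mean of 15 reads over 5 livers against the 3 reads that a count of 0 over the WT males allows.

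Per kilobase of exon, the order of the 7 genes differed between groups. In WT females *Cyp2a4* (605 CPM per kb) and *Cyp2a5* (480) overlapped at the top, followed by *Cyp2b9* (301), *Cyp2a12* (179), *Cyp2b13* (81.1), *Cyp2a22* (8.42) and *Cyp2b10* (5.06), with no overlap between any of these lower neighbours. In WT males *Cyp2a5* (392.5) and *Cyp2a12* (193) were far above the other 5 genes, of which *Cyp2a22* had the highest mean (0.766). The place of *Cyp2a12* depends on the length used, because its merged exons span 3457 bases and its coding transcript 1681. Over coding transcript lengths, chosen after seeing the data, *Cyp2a12* in WT females (368 CPM per kb, from 334 to 404) lay above *Cyp2b9* and overlapped *Cyp2a5* (494, from 384 to 681), and in WT males *Cyp2a12* (397) and *Cyp2a5* (404) were nearly equal. *Cyp2a22* (merged exons 3445 bases, coding transcript 1796) then had 16.2 CPM per kb in WT females and 1.47 in WT males, which left its place in the order of these 2 groups unchanged. *Cyp2a4* made up 56.2% ± 9.21 (SD, n = 3) of the summed *Cyp2a4* and *Cyp2a5* level in WT females, 17.7% ± 5.37 (n = 5) in females without *Esr1*, 1.27% ± 1.06 (n = 4) in males without it and 0.0334% ± 0.0151 (n = 3) in WT males. The summed level of the 4 Cyp2a genes was 1273 ± 181 CPM per kb in WT females, 528 ± 228 in ESR1KO females, 569 ± 172 in ESR1KO males and 586 ± 199 in WT males. Every WT female was above every other mouse in that sum, the highest of which stood at 825, and the other 3 groups overlapped. Over coding transcript lengths the WT females stood at 1285 or more and every other mouse at 1053 or less.

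The summed Cyp2b level ranged far more widely than the Cyp2a level. It was 387 ± 45.2 CPM per kb in WT females, 19.9 ± 7.37 in ESR1KO females, 2.61 ± 1.46 in ESR1KO males and 0.0259 ± 0.0283 in WT males, with no overlap between groups. In WT females *Cyp2b9* gave 78.0% ± 3.44 of it, *Cyp2b13* 20.7% ± 3.37 and *Cyp2b10* 1.31% ± 0.172. In ESR1KO females *Cyp2b9* gave 94.5% ± 2.04 and *Cyp2b13* 0.156% ± 0.136. In ESR1KO males *Cyp2b9* and *Cyp2b10* were nearly equal, with 47.9% ± 13.5 and 51.9% ± 13.8. *Cyp2b13* was thus nearly absent from the sum in both ESR1KO groups, while their shares of *Cyp2b9* did not overlap.

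**Figure D3:**
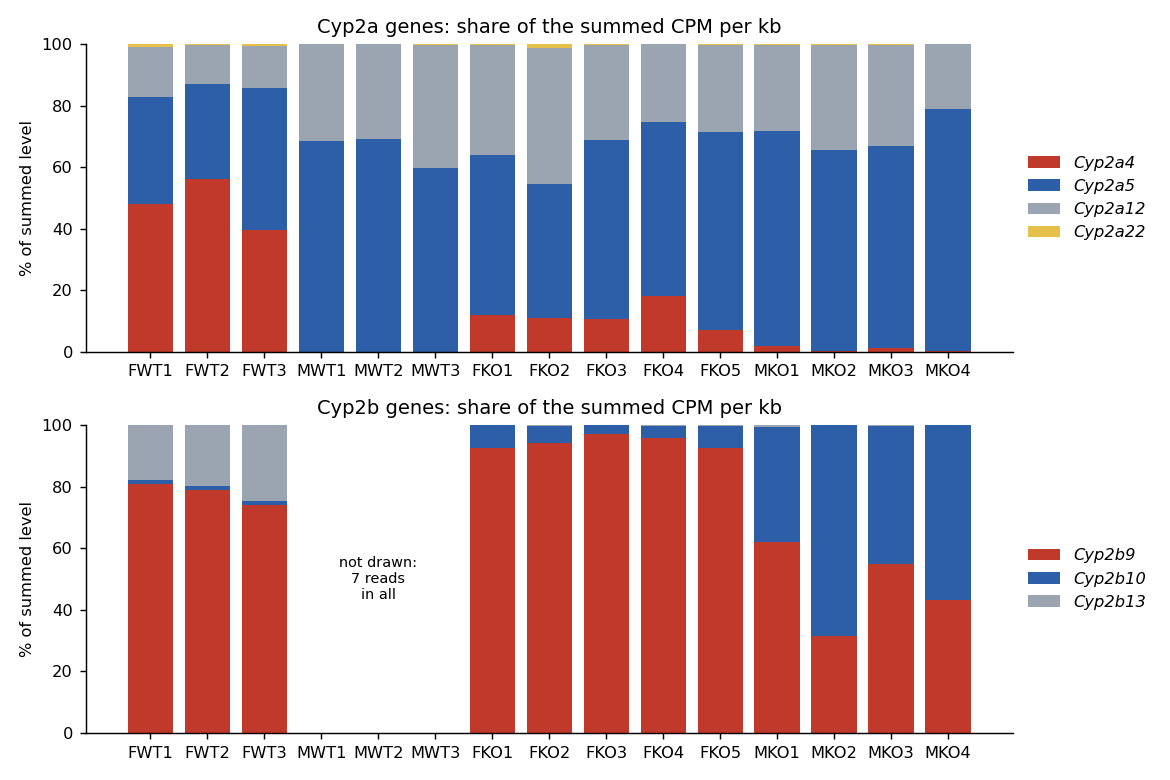
Share of each gene in the summed CPM per kilobase of the 4 Cyp2a genes (top) and the 3 Cyp2b genes (bottom), with 1 bar per mouse, and with the Cyp2b bars of WT males left out because they rest on 7 reads. *Cyp2a4* took 39.5% to 56.0% of the Cyp2a sum in WT females and at most 18.2% in any other mouse (34.0% to 48.9% and at most 14.2% over coding transcript lengths), and *Cyp2b13* at least 18.0% of the Cyp2b sum in WT females and at most 0.698% elsewhere.

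The ESR1KO females also differed among themselves, and not in the same order for each gene. Replicate 4 was highest for *Cyp2a4*, *Cyp2a5*, *Cyp2a12* and *Cyp2b9* and lowest for *Cyp2a22*. Replicate 2 was lowest for *Cyp2a4*, *Cyp2a5* and *Cyp2a12* and highest for *Cyp2a22*, *Cyp2b10* and *Cyp2b13*. The highest value was 5.03 times the lowest for *Cyp2a4*, 5.18 times for *Cyp2a22*, 3.11 times for *Cyp2b9*, 2.10 times for *Cyp2b10* and 1.74 times for *Cyp2a12*. Among the ESR1KO males, replicate 4 was likewise highest for *Cyp2a5* and *Cyp2a12* and lowest for *Cyp2a22*, and the highest *Cyp2a4* value was 7.27 times the lowest.

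The sex-biased members were not contiguous in the cluster. Of 46 annotated genes in the 1356 kb from *Cyp2s1* to *Cyp2t4*, 17 were tested, among them the 7 members. The 3 Cyp2b genes and *Cyp2a4* lie between 95.1 and 505 kb from the start of *Cyp2s1* and all fell in ESR1KO females. The noncoding or pseudogene neighbours *Cyp2b27-ps*, *BC026762*, *Rnf170-ps* and *Gm42375* in the same stretch fell as well, by -5.31, -6.34, -6.18 and -2.12 on the log2 scale, and none of these 4 passed in males. *Cyp2b27-ps* (42 reads over all mice) and *BC026762* (83) had 0.272 and 0.547 CPM in WT females and 0 in WT males. *Rnf170-ps* had 5.15 CPM in WT females and 0.0680 in ESR1KO females, and 0.0458 in WT and 0.0227 in ESR1KO males. Like the member *Cyp2b13*, *Cyp2b27-ps*, *BC026762* and *Rnf170-ps* were tested only because of their reads in WT females. Only a fall could thus be seen in females, and with almost no reads in males a change there could hardly be seen. Reads of *Rnf170-ps* and unspliced *Cyp2b13* RNA, and those of *Gm42375* and *Cyp2a4* where they overlap, cannot be told apart. *Cyp2a5* at 1033 kb and *Cyp2a12* at 1227 kb, neither of which passed, flank *Cyp2a22* at 1129 kb, which did. *Cyp2g1*, a P450 gene known from the olfactory epithelium, lies next to *Cyp2a5* and had 7.37 CPM in WT females and 1.80 in WT males (log2 2.06, SE 0.400, adjusted p = 0.00454), and fell to 3.15 CPM in ESR1KO females (log2 -1.22, SE 0.330, adjusted p = 0.0407). *Cyp2f2*, the naphthalene-oxidizing P450 gene at 1317 kb, was instead lower in WT females than in WT males (526 and 1016 CPM, log2 -0.95, SE 0.210, adjusted p = 0.0123). Of the 6 other P450 genes of the cluster, *Cyp2b19*, *Cyp2b23* and *Cyp2t4* had at most 4 reads over all mice and were not tested.

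**Figure D4:**
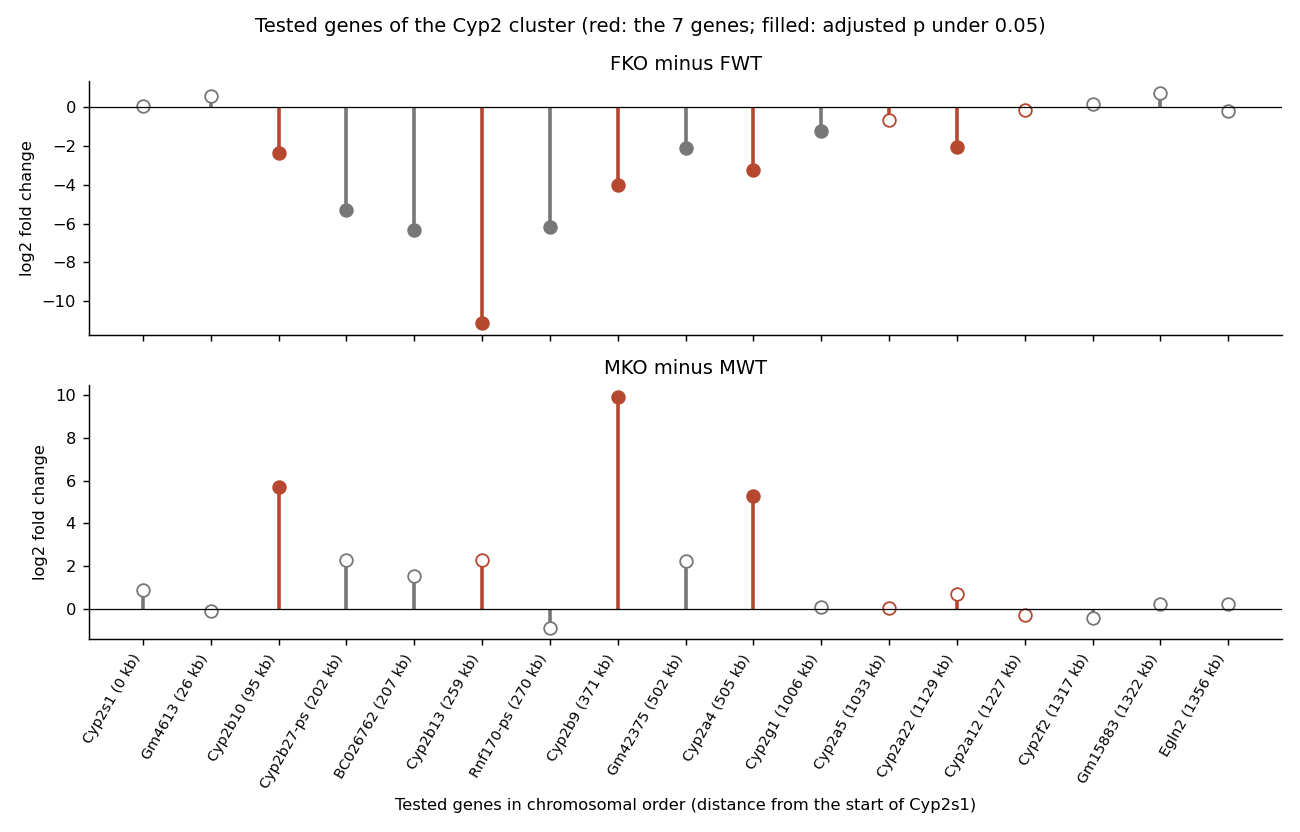
Log2 fold changes of the 17 tested genes of the Cyp2 cluster in chromosomal order, for ESR1KO against WT females (top) and males (bottom), with the 7 members in red, genes past an adjusted p of 0.05 filled, and the distance from the start of *Cyp2s1* in kb. In females the tested genes from *Cyp2b10* at 95 kb to *Cyp2a4* at 505 kb all fell. Of these, *Cyp2b27-ps*, *BC026762*, *Cyp2b13* and *Rnf170-ps* had almost no reads outside WT females. In males *Cyp2b10*, *Cyp2b9* and *Cyp2a4* rose, where the *Cyp2b9* and *Cyp2b13* values are set against 0 reads in WT males.

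*Cyp2b10* is the classic target of CAR, and other targets of CAR and PXR moved in both directions. Of 13 such genes tested, 3 were higher and 2 lower in WT females than in WT males, 4 rose and 2 fell in ESR1KO females, and 1 rose in ESR1KO males. Their median log2 difference was 0.10 in females and 0.51 in males, against 0.00 over all genes in each, where *Cyp2b10* had -2.36 and 5.69. *Cyp2c55* went the other way from *Cyp2b10* in females, rising from 2.68 to 10.3 CPM (log2 1.96, SE 0.266, adjusted p = 0.00025), and also rose in males (log2 1.17, SE 0.258, adjusted p = 0.03). *Akr1b7*, a reductase gene, followed *Cyp2b10* in females, with 1.46 CPM in WT and 0.324 in ESR1KO (log2 -2.19, SE 0.214, adjusted p = 7.05e-06), and gave 0.57 in males without passing (SE 0.325, adjusted p = 0.606). *Cyp2c37* fell in females by 1.11 on the log2 scale (adjusted p = 0.0322), and *Cyp2c54* was 0.94 higher in WT females than in WT males (adjusted p = 0.0247). *Nr1i3*, for CAR, was higher in WT females than in WT males (372 and 193 CPM, log2 0.95, SE 0.227, adjusted p = 0.0202) and gave -0.54 in ESR1KO females (adjusted p = 0.119), while *Nr1i2*, for PXR, passed in none of these comparisons, with log2 differences between -0.20 and 0.35.

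Among 20 regulators of P450 genes, 4 were higher in WT females than in WT males, 3 fell in ESR1KO females and 1, *Esr1*, fell in ESR1KO males. *Cux2*, a transcription factor gene known to be expressed in female liver, had 45.5 CPM in WT and 4.44 in ESR1KO females, and 0.624 in WT and 0.519 in ESR1KO males. Its sex bias (log2 6.14, SE 0.602, adjusted p = 3.75e-06) and its fall in ESR1KO females (log2 -3.32, SE 0.410, adjusted p = 8.78e-05) had the directions of *Cyp2a4*, but its value in ESR1KO males was -0.25 against WT males (adjusted p = 0.926). *Cux2* was also higher in ESR1KO females than in ESR1KO males (log2 3.07, adjusted p = 0.0099) and WT males (log2 2.82, adjusted p = 0.00924), the directions of *Cyp2a4*. *Por*, for the P450 reductase, fell in ESR1KO females from 539 to 277 CPM (log2 -0.96, SE 0.243, adjusted p = 0.0301) and was the only 1 of 7 genes of redox partners and heme supply that passed. Of 6 NRF2 target genes tested, *Nqo1* was higher (log2 1.27, adjusted p = 0.00246) and *Ugdh* lower (log2 -0.97, adjusted p = 4.33e-05) in WT females, and *Ugdh* rose in ESR1KO females (log2 0.85, adjusted p = 0.000116).

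Genes of liver zones are given because Cyp2a5 and the Cyp2b enzymes are found mainly around the central vein. Of 8 pericentral genes, *Cyp1a2* (log2 -0.89, adjusted p = 0.0486) and *Lgr5* (log2 -0.80, adjusted p = 0.0222) fell in ESR1KO females, and none passed between the WT sexes or in males. Of 6 periportal genes, *Cdh1* fell in ESR1KO females (log2 -0.85, adjusted p = 0.00208) and in ESR1KO males (log2 -0.65, adjusted p = 0.0402). In ESR1KO against WT females every gene of both lists had a negative log2 difference. The medians were -0.48 for pericentral and -0.52 for periportal genes, against 0.00 over all genes. In males they were -0.09 and -0.02. Among markers of other cell types, *Krt19* and *Epcam*, 2 of 4 cholangiocyte markers, rose in ESR1KO males, by 1.23 and 0.95 on the log2 scale, *Epcam* was higher in WT females than in WT males (log2 1.08, adjusted p = 0.00657), and *Spp1* rose in ESR1KO females (log2 0.60, adjusted p = 0.0272). The summed level of the 4 was 31.6 to 31.9 CPM in WT females and 42.3 to 50.2 in ESR1KO females, without overlap, and 32.5 to 52.9 in WT and 39.9 to 57.2 in ESR1KO males. Most of that sum was *Spp1*, with means of 28.8 CPM in WT and 43.5 in ESR1KO females. *Krt7* (log2 0.00), *Krt19* (0.37) and *Epcam* (-0.21) did not pass between ESR1KO and WT females. None of the 16 markers of macrophages, endothelial cells, stellate cells and lymphocytes passed in the 3 comparisons between WT sexes or with WT of the same sex, but the macrophage gene *Vsig4* was higher in ESR1KO females than in ESR1KO males (log2 0.61, adjusted p = 0.021) and WT males (log2 0.48, adjusted p = 0.0383). The red cell gene *Alas2* was lower in WT females than in WT males (21.7 and 169.7 CPM, adjusted p = 2.26e-06) and rose to 128 CPM in ESR1KO females (log2 2.56, adjusted p = 9.34e-06). The hemoglobin genes *Hbb-bs* (log2 -0.32, adjusted p = 0.842) and *Hba-a1* (log2 -0.19, adjusted p = 0.91) did not pass between the WT sexes, and the 3 red cell genes summed to 64.9 to 451 CPM in WT females, 304 to 587 in WT males and 310 to 418 in ESR1KO females. The part of these markers in the changes of the 7 genes was not tested.

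The genes whose pattern over the 15 mice was most like that of a member were found by the root mean square difference of centred log2 CPM, in which 0 would mean the same pattern. *Slc22a26* was nearest to *Cyp2a4* (1.25) and to *Cyp2b9* (1.55), followed for both by *A1bg* (1.76 and 1.79), although *Cyp2a4* and *Cyp2b9* were closer to each other (0.763) than to either of these. Nearest to *Cyp2b13* were *Sult3a1* (0.567), *Cyp3a16* (0.747) and *Cyp3a41a* (0.795), of which *Sult3a1* had 106.5 CPM in WT females and 0.0654 in ESR1KO females. *Cyp2b10* was nearest to *Slc22a27* (0.726), *Hamp2* (1.01) and *Acot3* (1.05), each of which had intermediate means in both ESR1KO groups. *Cyp2a22* was nearest to *Akr1b7* (0.452), *Atp6v0d2* (0.610) and *Gm13855* (0.633). These are descriptions over 15 livers of 4 groups and carry no test.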

How the data were processed

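Liver RNA, depleted of ribosomal RNA, was sequenced with paired-end reads from 15 mice. The authors used Trimmomatic 0.36 for trimming, STAR for alignment to GRCm38 and HTSeq for counting by gene, and the deposited table holds the resulting raw counts with no normalization. The annotation, the strand setting and the handling of reads that match several genes are not given in the sources used here.

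Tests were run with edgeR 4.0.16 in R 4.3.3. Genes were kept by filterByExpr over the 4 groups, libraries were scaled by TMM, and 1 mean per group was fitted to all 15 libraries with glmQLFit and glmQLFTest. The Benjamini-Hochberg adjustment covered all 17655 genes of the fit, and a gene passed under 0.05. Standard errors are the log2 fold change divided by the square root of F. The interaction is the genotype difference in females minus that in males. CPM values use TMM, lengths are merged exons of GENCODE M21 unless given as coding transcripts, and a group with 0 counts was read as up to 3 counts over the group. Intervals and limits cover counting error only, and p values measure the spread between these mice.

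Groups follow the source names of the labels. Alternatives were DESeq2 1.42.0, other scalings, filters of low counts, the contrasted groups alone, other call rules and close copies summed. Further ones were a replicate block, each mouse left out and, chosen after seeing the data, coding transcript lengths. Same-numbered mice did not deviate together (median r = -0.023 over 19 pairs, from -0.195 to 0.14), so the block is an alternative only. All members have their values given. Of each gene list, the 4 largest changes that passed are named, with *Nr1i3*, *Nr1i2*, *Por* and *Esr1*, genes overlapping a member, and the 3 genes nearest in pattern. Some genes that this rule names are not reported here. Genes of the cluster window were named after their values were seen. The members and lists were chosen with earlier results of these data known.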

Additional observations from a re-analysis of the deposited data

Results flagged for a closer look

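Among 14 groups of 4 or 5 mice, 7 genes in ESR1KO females and in ESR1KO males, the highest or lowest mouse stood apart from the others in 3. The rule flags about 1 in 20 single groups by chance. These groups share mice and include near-identical copies, so 3 of 14 cannot be set against that rate. *Cyp2a4* was 259 CPM in replicate 4 of the ESR1KO females, above 51.6 to 98.6 CPM in the other 4. *Cyp2a5* was 1346 CPM in replicate 4 of the ESR1KO males, above 628 to 746 CPM in the other 3. *Cyp2b10* was 4.37 CPM in replicate 3 of the ESR1KO males, above 1.82 to 2.24 CPM in the other 3. These are 3 different mice.

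The difference between the log2 effect of *Esr1* loss in females and in males passed the test for 5 genes, with log2 values of -8.50 for *Cyp2a4*, -2.71 for *Cyp2a22*, -13.92 for *Cyp2b9*, -8.06 for *Cyp2b10* and -13.42 for *Cyp2b13*. The sizes for *Cyp2b9* and *Cyp2b13* depend on the prior count, since WT males had 0 reads. For these genes, and for *Cyp2a4* and *Cyp2b10* with few reads in WT males, a fall in males could hardly be seen. For *Cyp2a22* and *Cyp2b13* the call was lost in some of the fits that left out 1 mouse.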

How the results depend on the processing

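The number of members that passed stayed within 1.5 times in all alternatives tried, apart from ESR1KO females against WT males, where 3 were higher with edgeR, 5 with DESeq2 and 5 by unadjusted p, and the interaction, where leaving out 1 mouse gave between 3 and 5 lower (3 without replicate 2 or 3 of the WT males). The cause was not tested. With close copies summed (*Cyp2a4* with *Cyp2a5*, and the Cyp2b genes together) no such count applies. The summed *Cyp2a4* and *Cyp2a5* gave -0.21 in ESR1KO females against ESR1KO males and -0.14 against WT males, and the summed Cyp2b genes gave 2.85 in the first comparison, opposite in sign to *Cyp2b10* alone because *Cyp2b9* dominates the sum. The numbers did not pair the mice, and the replicate block gave -0.34 for *Cyp2a5* in ESR1KO against WT males and -0.06 for *Cyp2a12* in ESR1KO females against ESR1KO males, both of which had not passed. It also moved *Cyp2a5* in females (-1.24, adjusted p = 0.0485), *Cyp2a22* in ESR1KO females against WT males (1.57, adjusted p = 0.0347) and the *Cyp2b13* interaction (-13.38, adjusted p = 0.0814) across the threshold. Leaving out 1 mouse gave log2 values of -0.01 to 0.48 for *Cyp2a5* between the WT sexes, -0.27 to 0.24 for *Cyp2a5* in ESR1KO against WT males, -0.08 to 0.12 for *Cyp2a12* and -0.52 to 0.00 for *Cyp2b10* between the ESR1KO sexes. The gene levels moved by less than 1 SD under the other scalings and over the longest transcript. Over coding transcript lengths, chosen after seeing the data, *Cyp2a12* and *Cyp2a22* moved by more than 1 SD in all 4 groups (in WT females to 368 and 16.2 CPM per kb) and the other 5 genes by less, because merged exons are longer for those 2 genes. In WT males, 7 reads of *Cyp2b10*, 29 of *Cyp2a4* and 0 of *Cyp2b9* and *Cyp2b13* limit the precision of every fold change against that group.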
